A study of Eohaustorius estuarius with 16 samples.

Results

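In whole-body RNA of the estuarine amphipod Eohaustorius estuarius, 218 of 8507 array probes showed a small difference between cyfluthrin-exposed and solvent-control animals, with no overlap between the arrays of the groups. These probes were chosen by the measured values themselves. A probe was taken when all 8 cyfluthrin arrays lay above, or all lay below, 7 of the 8 control arrays, and when the group means differed by less than 1 on the log2 scale, that is by less than 2-fold. The choice did not use the array labelled control replicate 3. A further condition was a signal well above background, as marked by the scanner software, on at least 8 of the 15 arrays used, which 7151 probes met. Of the 218 probes, 77 were higher and 141 were lower with cyfluthrin. Whatever the size of the difference, 316 of the 7151 probes had exposed arrays and these 7 controls apart (4.42%). Of these, 136 were higher (1.9%) and 180 lower (2.52%). With control replicate 3 kept as labelled, the groups did not overlap at 28 of 7179 tested probes (0.39%). Of the 218 probes, 25 were among those. Since the choice used the exposure contrast, sizes and directions are given below as a description, and they support no test of exposure.

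For 10 days the exposed animals lived in sediment to which cyfluthrin had been added (nominal dose 1.6 µg/kg), and the control animals in sediment that received only the solvent. The labels give neither age nor sex, and they do not say whether extracts came from separate exposure vessels. P-values therefore set a difference against the spread between these extracts, which need not cover the spread between vessels. Each of the 8 exposed and 8 control extracts was labelled with Cy3 and hybridised to 1 array in a single laboratory of a comparability study. Arrays run by other laboratories were not used here.

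Cyfluthrin is a pyrethroid insecticide. Pyrethroids slow the closing of voltage-gated sodium channels in nerve cells, and arthropods, crustaceans among them, are far more sensitive to them than mammals. Eohaustorius estuarius burrows in sand and is used as a test animal for sediment toxicity. RNA of a whole body mixes muscle, cuticle, gut, nerve and germ cells, so a change confined to a small tissue can appear as a small shift of the whole. In such RNA, fewer cells of a type and less RNA per cell cannot be told apart. Each of the 218 probes lies on an assembled contig of its own, and the files pair contigs with no gene names. The labelled tissue could therefore not be checked against marker genes, no roles can be given to the probes, and the results are described by probe.

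The array labelled control replicate 3 stood apart from the other controls. It had the dimmest signal of the 16 arrays, with a 75th percentile of 165 intensity units, against 202 to 310 on the 8 cyfluthrin arrays and 234 to 305 on the other 7 controls. Its file header lists a slope of 0 for the spike-in fit, where the other 15 arrays have slopes from 0.948 to 1.04. Per array, 6675 to 7422 probes passed the mark for well above background and no spot was saturated. Precision is limited by how many arrays there are. Levels below are log2 intensities relative to the 75th percentile of the array's own non-control spots. On the log2 scale that percentile was lower by 0.11 in cyfluthrin than in all 8 controls (two-sided exact permutation p = 0.382). Without the array labelled control replicate 3 the difference was -0.21 (two-sided exact permutation p = 0.0371, 6435 splits). Differences as small as those described here can depend on how arrays were scaled, and the number of chosen probes and their directions are also given under other scalings.

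Among the 77 probes that were higher, the median log2 difference was 0.55, or 1.46-fold, with a range of 0.20 to 0.98. Among the 141 that were lower, the median was -0.57, or 1.49-fold, with a range of -0.99 to -0.24. Over all 218 the interquartile range ran from 1.34-fold to 1.61-fold. Over all 7151 tested probes the median size was 1.14-fold, with a median signed difference of 0.01. The setting called normexp combined normexp background correction, an offset of 50 added to the intensities and quantile normalisation between arrays. With it, the median difference was 0.34 for the 77 probes and -0.41 for the 141. The median size over all tested probes was 0.09 with it, against 0.19 in the main scaling and 0.19 with quantile normalisation alone (log2). Differences under 0.5 were found at 85 of the 218 probes, 33 of them higher and 52 lower. At the limit of 1, the largest difference inside was 0.985, and the smallest one outside without overlap exceeded the limit by 9.77e-06.

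The 77 probes that were higher had a mean level between -0.19 and 0.01 on the 8 cyfluthrin arrays, with a median of -0.13. On the 7 controls used in the choice it lay between -0.76 and -0.61, with a median of -0.67. The group means were -0.11 ± 0.07 in cyfluthrin (SD, n = 8) and -0.68 ± 0.05 in these controls (SD, n = 7). All 8 exposed arrays were thus above all 7 controls by more than the range within either group. For the 141 probes that were lower, the mean level was 0.39 to 0.67 on the cyfluthrin arrays, with a median of 0.57. The corresponding values on the 7 controls were 1.07 to 1.22, with a median of 1.12. Here the group means were 0.57 ± 0.08 in cyfluthrin and 1.13 ± 0.05 in the controls (SD). By array, the mean over the 141 probes was 0.54, 0.67, 0.63, 0.59, 0.39, 0.61, 0.54 and 0.56 on cyfluthrin replicates 1 to 8, so that replicate 5 lay lowest. On the array labelled control replicate 3 the means were -0.11 for the 77 probes and 0.56 for the 141, both inside the cyfluthrin ranges. That the groups separate in these means follows from the choice of probes. The values of the array labelled control replicate 3 were not used in that choice. However, the rule that left this array out was set with earlier results of these data known. Its position is also set against arrays selected to lie together.

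The gap between the nearest arrays of the groups was narrow for most probes. Its median was 0.08 on the log2 scale, 78 of the 218 probes had a gap under 0.05, and 128 one under 0.1. The widest gap was 0.48. Next to the limit, the narrowest gap was 0.00015 inside, and outside it the groups overlapped by as little as 0.00039. The group difference was between 1.87 and 7.28 times the pooled SD, with a median of 3.11. Within-group spread was small at these probes, with a median SD of 0.18 in cyfluthrin and 0.15 in the 7 controls, against 0.28 and 0.24 over all tested probes. Low spread is favoured by the choice. The SD was larger in cyfluthrin than in the 7 controls at 151 of the 218 probes (69.3%), beside 62.7% of all tested probes.

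The probes with the widest gap were followed array by array. Probe CUST_148_PI425439380, on contig 4495, had levels of -2.66 to -2.06 on the 8 cyfluthrin arrays (median -2.29), against -3.88 to -3.01 on the 7 controls (median -3.24). The array labelled control replicate 3 stood at -2.12, within the exposed range. Means were -2.33 ± 0.19 in cyfluthrin and -3.30 ± 0.28 in the 7 controls (SD). The difference was 0.97 over 15 arrays, 1.96-fold, with 0.93 and 1.01 at its 2 spots. It was 0.34 with normexp and quantile normalisation, and 0.50 with 50 added to the signal. Over all 16 arrays the limma estimate was 0.82 ± 0.18 (SE), or 1.77-fold.

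Probe CUST_3295_PI425439380, on contig 7585, lay between -1.46 and -0.73 on the cyfluthrin arrays (median -1.21), against -2.42 to -1.82 on the 7 controls (median -2.13). Its value on the array labelled control replicate 3 was -1.13. Means were -1.18 ± 0.24 in cyfluthrin and -2.15 ± 0.22 in the 7 controls (SD). The 15-array difference was 0.98, 1.97-fold, from a single spot, and it was 0.50 with normexp and 0.65 with 50 added to the signal. With all 16 arrays it was 0.85 ± 0.16 (SE), or 1.80-fold.

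Probe CUST_3855_PI425439775, on contig 5213, had the widest gap of all 218, at 0.48. It lay between -0.94 and -0.65 on the cyfluthrin arrays (median -0.75), against -0.17 to -0.04 on the 7 controls (median -0.13). Means were -0.79 ± 0.12 in cyfluthrin and -0.12 ± 0.04 in the 7 controls (SD), while the array labelled control replicate 3 stood at -0.87. The difference was -0.67 over 15 arrays, 1.59-fold lower, with -0.68 and -0.66 at its 2 spots. Over 16 arrays it was -0.58 ± 0.11 (SE), or 1.49-fold lower.

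Probe CUST_1624_PI425439775, on contig 4832, ranged from 1.02 to 1.47 on the cyfluthrin arrays (median 1.32), against 1.84 to 2.07 on the 7 controls (median 1.96). On the array labelled control replicate 3 it was 1.23. The cyfluthrin arrays averaged 1.28 ± 0.16 and the 7 controls 1.97 ± 0.08 (SD). The probe was 1.61-fold lower over 15 arrays, a difference of -0.69, and over 16 arrays the difference was -0.60 ± 0.11 (SE), or 1.51-fold lower. At all 4 of these probes the array labelled control replicate 3 was inside the range of the exposed arrays and outside that of the other controls.

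How far each array had moved was put on a common scale for every probe, with 0 at the mean of the 7 controls and 1 at the cyfluthrin mean. The median position over the 218 probes ran from 0.833 in cyfluthrin replicate 3 to 1.23 in cyfluthrin replicate 5. The 7 controls ran from -0.0998 in replicate 8 to 0.0845 in replicate 7. The exposed extracts were thus spread over a wider range than these controls, with cyfluthrin replicate 5 alone above 1.04. The comparison sets 8 exposed arrays against 7 controls, without the array labelled control replicate 3. Between cyfluthrin replicates 3 and 5 lay replicates 2 at 0.851, 6 at 0.892, 1 at 0.957, 8 at 0.962, 7 at 1.01 and 4 at 1.04. The array labelled control replicate 3 lay at 0.952, among them. Cyfluthrin replicate 5 was the array farthest from the controls at 70 of the 218 probes and the one nearest to them at 3. Among the 141 probes that were lower it was farthest at 58, and among the 77 that were higher at 12. Cyfluthrin replicate 4 was farthest at 29 of those 77, and at 8 of the 141. Cyfluthrin replicates 2, 3 and 6 were nearest to the controls at 51, 45 and 42 probes. Without cyfluthrin replicate 5 the median difference was 0.53 for the probes that were higher and -0.53 for those that were lower. That array had 6813 probes well above background and a 75th percentile of 203 intensity units, next to the lowest of the 8 exposed arrays; the part of either in its position was not tested.

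The array labelled control replicate 3, which took no part in the choice, had a value at 217 of the 218 probes. At 182 of them (83.9%) it fell within the range of the 8 cyfluthrin arrays, at 10 past that range, at 15 between the ranges and at 10 within the range of the other controls. It was nearer to the cyfluthrin mean than to the mean of the other controls at 195 of 217 probes. By direction, it was within the cyfluthrin range at 60 of 77 probes that were higher and at 122 of 140 that were lower. Its median absolute difference over the probes was 0.07 from cyfluthrin replicate 3 and 0.15 to 0.19 from the other exposed arrays, but 0.46 to 0.58 from the other controls. The value of 0.07 was the smallest of all 120 pairs of arrays, the next being 0.11 between control replicates 1 and 2. For scale, pairs of cyfluthrin arrays differed by a median of 0.18, pairs of the 7 controls by 0.15, and pairs across the groups by 0.53. Whether this array shares an extract with cyfluthrin replicate 3 or carries a wrong label was not tested. All values over 16 arrays count it as a control, as labelled. Without scaling between arrays it fell within the cyfluthrin range at 68 probes, and under the other 6 scalings and corrections at 160 to 183.

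At 10 probes the array labelled control replicate 3 went with its label. Of these, 6 were higher and 4 lower with cyfluthrin, their differences were 0.28 to 0.58 in size, and their median gap of 0.02 was narrower than the 0.08 of all 218. With that array kept in the choice, 25 of the 218 probes still had no overlap, 14 higher and 11 lower, with a median size of 0.43. Over all tested probes, groups of 8 and 8 did not overlap at 28 of 7179 (0.39%).

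The probes that were lower carried brighter signals than those that were higher. Brightness depends on the probe as well as on its transcript, so it does not rank abundance. The median level was 0.69 for the 141 probes that were lower, -0.55 for the 77 that were higher and -1.44 for all tested probes. When the tested probes were divided into 4 bins of equal size by brightness, the brightest bin held 109 of the 218 probes (6.1% of its 1788 probes), the third 64, the second 36 and the dimmest 9 (0.503%). In the brightest bin 82 of 109 were lower with cyfluthrin (75.2%), in the third 41 of 64, in the second 15 of 36 and in the dimmest 3 of 9. The median size of the chosen probes was between 0.55 and 0.60 in each bin. Since the choice held sizes below 1 in every bin, these medians do not show how size goes with brightness. Over all tested probes, the share with a difference below 0 was 53.2% in the brightest bin, 47.6% in the third, 42.7% in the second and 48.4% in the dimmest. The median within-group SD of cyfluthrin arrays was 0.21 in the brightest bin and 0.42 in the dimmest, and that of the 7 controls 0.19 and 0.32. On every one of the 16 arrays 217 of the 218 probes passed the background mark. The remaining one, lower by 0.86 with cyfluthrin, passed it on 13 of the 15 arrays used in the choice.

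The share of probes that were lower depended on the scaling. Of the 218 probes 64.7% were lower, where 48% of all tested probes had a difference below 0. Applied to quantile-normalised values, the same rule gave 81 higher and 118 lower probes (59.3% lower). With arrays scaled to the median it gave 48 and 117 (70.9% lower). The values of the authors' deposited table gave 81 and 119 (59.5% lower). With 50 added to the signal it gave 107 and 146 (57.7% lower). Normexp followed by quantile normalisation gave 108 and 124 (53.4% lower). Without any scaling the median difference of all tested probes was -0.20, and the rule gave 11 higher and 172 lower. The unscaled medians were 0.34 for the probes that were higher and -0.78 for those that were lower. Leaving out the scaling moves every probe's difference by the same amount, so these values only restate the scaled medians.

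Separation between the groups was followed probe by probe under the same settings. Of all tested probes 4.42% were apart by any size in the main scaling, and that share was not counted under the others. Probes apart by less than 1 were counted among all tested probes. They numbered 218 in the main scaling, 165 scaled to the median, 183 without scaling, 199 with quantile normalisation and 232 with normexp. The counts below therefore lack the share of any size beside them and only describe probes already chosen as apart. With arrays scaled to the median, 41 of the 77 higher and 107 of the 141 lower probes still had the groups apart. Without scaling it was 6 of 77 and 85 of 141. With quantile normalisation the counts were 60 of 77 and 111 of 141, and with normexp 56 of 77 and 87 of 141. At 53 of the 218 probes, 4 higher and 49 lower, the groups were apart in the unscaled signal and under all 6 other scalings and corrections. Those 53 had a median size of 0.67 and a median gap of 0.22. Without scaling, every probe's difference moves by the same -0.21, so the sign could turn only at the smallest differences among probes that were higher. It was kept at 217 of the 218 probes.

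Duplicate spots were compared next. Of the 218 probes, 162 had 2 spots per array and 56 had 1. The choice used the mean of the spots, so a like sign at both, found at all 162, was nearly fixed by it. The spots' differences were apart by a median of 0.03 and at most 0.23. The SD between the spots of a probe on an array had a median of 0.05, beside 0.18 between cyfluthrin arrays and 0.15 between controls; the first covers noise within an array only. Taken singly, both spots kept the groups apart at 103 of the 162 probes, 1 spot did at 49 and neither at 10. The choice required the mean of these spots to be apart, and no share over all tested probes was counted. These counts therefore only describe the chosen probes. Among the 103, 78 were lower with cyfluthrin and the median gap was 0.13. At the 10 it was 0.02, so the averaging of spots decided their inclusion. The 380 spots of these probes were spread over the whole array, from row 1 to row 192 and column 1 to column 82.

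Values were also taken within each slide. Since the choice required all 8 cyfluthrin arrays on one side of the 7 controls, the direction within a slide was fixed by it, and only the sizes are described. Each slide held 4 cyfluthrin and 4 control arrays, with control replicate 3 on slide 2. For the probes that were higher, the median difference was 0.57 within slide 1 and 0.52 within slide 2, the second without control replicate 3. For those that were lower, it was -0.52 within slide 1 and -0.60 within slide 2. A probe's differences on the slides were apart by a median of 0.12 and at most 0.66. Past a difference of 1 were 4 probes within slide 1 and 11 within slide 2. The interaction of exposure and slide, fitted with limma over all 16 arrays, passed at 0 of 7179 probes (0%) at an adjusted p under 0.05, and at 0 of the 218. Before adjustment 110 of the 7179 probes (1.53%) and 2 of the 218 had p under 0.05, which does not show that the slides act alike.

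In the fit over all 16 arrays, limma called 620 of 7179 tested probes (8.64%) at an adjusted p under 0.05, 248 higher (3.45%) and 372 lower (5.18%). Of the 218 probes 193 were among them, 66 higher and 127 lower. Without control replicate 3, 1063 of 7151 probes passed (14.9%), 471 higher (6.59%) and 592 lower (8.28%), and all 218 were among them. Both counts rest on the contrast that chose the probes and are given only to place them. The median size of their difference was 0.49 with a median SE of 0.11 over 16 arrays, and 0.56 with 0.10 over 15. In slide 1 alone 139 probes passed (1.94%), 46 of them among the 218. In slide 2 alone 0 passed (0%; 696 with unadjusted p under 0.05), and 186 passed once control replicate 3 was left out (2.6%), 32 of them among the 218.

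Deviations of single extracts were shared only weakly among these probes. Over the 8 cyfluthrin and 7 control arrays, the correlation of deviations from the group means had a median of 0.17 between 2 probes that were lower and 0.11 between 2 that were higher. It was -0.04 between probes of opposite direction, and 0.03 between any 2 tested probes. The 5th to 95th percentiles were wide in each case, from -0.37 to 0.65 for 2 probes that were lower. These values come from the same 15 arrays and share their scaling. The first principal component of the deviations held 18.8% of their variance, and cyfluthrin replicate 5 had the largest loading on it, 0.72.

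Probes without overlap that differed by 1 or more were set beside the small shifts. Of these 59 were higher and 39 lower, so probes that were higher were the more numerous there, and probes that were lower the more numerous among the 218. The median size was 7.84-fold for the 59 and 2.36-fold for the 39. Their within-group SDs were larger, with medians of 0.48 in cyfluthrin and 0.61 in the 7 controls for the 59, and 0.32 and 0.31 for the 39. Median gaps were 1.07 and 0.38, against 0.08 for the small shifts. The size limit itself separates these sets, and no test of the difference between them was made.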

How the data were processed

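Cy3-labelled cRNA of 8 cyfluthrin and 8 control extracts was measured on 1-colour Agilent arrays with 15208 non-control spots. Per the file headers, the deposited intensity values come from Feature Extraction 11.5.1.1 (Agilent), while the submitters' processing notes name version 9.1. The processed intensity is background-subtracted and not scaled between arrays. The deposited log2 table, whose scale and centring the sources used here do not describe, matched quantile-normalised log2 intensity centred on each probe's median (r 0.99985 to 0.99999 and slope 0.999 to 1.001 per array), which settles scale, centring and direction. Its column medians were -0.0079, 0.0214, 0.0062, 0.0337, 0.0109, -0.0169, 0.0357 and -0.0295 for cyfluthrin replicates 1 to 8, and -0.0048, -0.0151, 0.0044, 0.0016, 0.0425, -0.0355, -0.0065 and -0.0214 for control replicates 1 to 8. It served only as an alternative.

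After removal of 336 outlier spots, the log2 processed intensity was set relative to the 75th percentile of its array, and replicate spots were averaged per probe. The mark for well above background had to be present on 50% or more of a probe's spots. Probes with a missing array value were not chosen; skipping missing values would add 2. The test of exposure was limma's (version 3.58.1, R 4.3.3, with lmFit and eBayes, two-sided, threshold 0.05 after Benjamini-Hochberg adjustment over all tested probes), on 7179 probes well above background on at least 8 of 16 arrays. Single values were compared with exact permutation tests. Normexp used an offset of 50 on median pixel intensity and was followed by quantile normalisation between arrays. Data for 7157 probes were simulated with independent normal noise and each probe's SD pooled over both groups of 16 arrays. From these, limma recovered 22% of probes changed by 0.3, 64% at 0.6, 88% at 1 and 100% at 2 (log2). There were 6 false calls among 143. Deviations shared between arrays or probes were not simulated, so these figures do not give the error rate of the real calls. Groups and replicate numbers came from the sample titles, and slides and the array rows on them from the file headers. Named are the 2 higher and 2 lower probes with the widest gap among those well above background on all 16 arrays. The probes and the rules were chosen with earlier results of these data known. No sequences or gene names of the probes were used here.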

Additional observations from a re-analysis of the deposited data

Results flagged for a closer look

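Each of 16 sets of 8 arrays was screened for an array far from the other 7, which chance gives in about 5%, or about 1 in 20, of independent sets. That share does not apply here. The sets rest on the same probes, and the probes were chosen by the 8 exposed arrays and the other 7 controls, 4 of them for the widest gap, so control replicate 3 is set against arrays selected to lie together. In 7 of them an array stood apart. For the array labelled control replicate 3, the mean level was -0.11 over the 77 probes that were higher (nearest other control -0.61) and 0.56 over the 141 that were lower (nearest 1.07). Its median position between the groups was 0.952, with the nearest other control at 0.0845. It stood at -1.13 for CUST_3295_PI425439380 (nearest -1.82), at -0.87 for CUST_3855_PI425439775 (nearest -0.17) and at 1.23 for CUST_1624_PI425439775 (nearest 1.84). Among the exposed arrays, cyfluthrin replicate 5 had a mean level of 0.39 over the 141 probes that were lower, with the nearest other exposed array at 0.54. No cause of these positions was tested.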

How the results depend on the processing

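The rule gave 165 to 253 probes under 6 other scalings and corrections, 183 without scaling and 217 or 218 under other filters on dim probes, against 218. It gave 85 with a limit of 0.5, 27 with control replicate 3 kept, 759 in slide 1 alone and 1111 in slide 2 alone, where fewer arrays make separation easier. Leaving out a further array gave 231 to 298. Combinations that leave out control replicate 3 together with another choice, and the values without scaling, were chosen after seeing the data. Of all tested probes, 620 passed over 16 arrays, 540 to 650 under the 6 other scalings and corrections, 171 at a threshold of 0.01, 1044 at 0.10, 1184 with array weights, 139 in slide 1 and 0 in slide 2 (limma, 696 with unadjusted p under 0.05). With the array's row on its slide as a block, 429 passed over 16 arrays, 149 of them among the 218. The same block without control replicate 3 left 816, with 209 of the 218. Exposed and control arrays were not spread evenly over these rows. Leaving out single arrays gave 388 to 1063. The counts were 405 without control replicate 1, 1063 without control replicate 3, 388 without control replicate 8, 407 without cyfluthrin replicate 5 and 413 without cyfluthrin replicate 7. Without control replicate 3 it was 951 with median scaling (375 higher and 576 lower), 1094 with quantile normalisation, 1085 with normexp, 1435 with 50 added to the signal (862 higher and 573 lower), 1097 in the authors' table, 1068 with outlier spots kept, 1036 with the slide as a block and 186 in slide 2. Of the 218 probes, 193 passed over 16 arrays, 179 to 194 under those 6, 70 at a threshold of 0.01, 46 in slide 1, 0 in slide 2 (limma), 32 in slide 2 without control replicate 3, and 149 to 218 when single arrays were left out. The interaction of exposure and slide passed at 0 probes under 18 alternatives (limma, 71 to 264 with unadjusted p under 0.05).

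A replicate block left 365 probes past the threshold, and 126 of the 218. Deviations of arrays with the same number had r from -0.19 to 0.52, over 0.1 in 5 of 8 pairs. Of 16 arrays, 6 had their highest correlation with their own number. Same-numbered arrays also share a slide. The labels state no pairing and not every pair was over 0.1, so the numbers were not used as pairs; what the pairs over 0.1 share was not tested. The difference of -0.11 in the log2 75th percentile was -0.35 within slide 1 (exact permutation p = 0.0286, the smallest that 70 splits allow), 0.12 within slide 2 (exact permutation p = 0.629) and -0.04 there without control replicate 3. It ran from -0.21 to -0.079 when single arrays were left out. The 4 named probes kept their direction in 42 alternatives each. CUST_148_PI425439380 was not called at a threshold of 0.01 and in slide 2, CUST_3295_PI425439380 in either slide alone, and the other two in slide 2. Without control replicate 3, which the choice also left out, limma called all 4 in slide 2. Brightness limits the account at dim probes, where the spread between arrays was largest. The causes were not tested.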
